A study of Homo sapiens with 15 samples.

Results

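The kinesins are the genes whose symbol begins with KIF or KIFC followed by a family number and, in some, a letter A to C. Of 42 such symbols in a table of 57736 genes, 38 had at least 1 count in some library, out of 23149 genes with any count, and 4 (KIF2B, KIF12, KIF19 and KIF26A) were at 0 in every library. Sorted by their known main role, the 38 comprised 13 mitotic kinesins, 17 transport kinesins, 5 kinesins of cilia and centrioles, and 3 with other or mixed roles.

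The 3′ ends of transcripts were sequenced from IMR90, fibroblasts of human fetal lung, in 15 libraries that make up 5 groups of 3. Every group but the control carried a retrovirus with RAS, an oncogene whose expression sends fibroblasts into senescence, that is, a lasting arrest of division. Cells of the wild-type add-back group carried RAS, an siRNA against METTL14 and lentiviral wild-type METTL14. Cells of the R298P add-back group carried RAS, the same siRNA and lentiviral METTL14 with the R298P substitution. Knockdown cells carried RAS, the METTL14 siRNA and a vector, taken here as the empty lentivirus. In siControl RAS cells RAS was joined by a non-targeting siRNA, and control cells carried the vector retrovirus and the non-targeting siRNA. The siRNA was first given 4 days after the retrovirus, and the cells were harvested 48 hours after the second siRNA. The labels name no lentivirus for siControl RAS and control cells, so in comparisons of the other groups with these the METTL14 siRNA and the lentivirus cannot be told apart. All groups are of 1 cell line, METTL14 was lowered by siRNA and not deleted, and the labels do not say which RAS was expressed. They do not say either whether replicate libraries stem from separate cultures, so p-values measure the spread between these libraries, which may be technical.

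Kinesins are motor proteins that use ATP to move along microtubules or to take their ends apart. The mitotic kinesins build the spindle, move and align the chromosomes and organise the midzone where the cell divides, and most are made only in cells that are preparing to divide. The transport kinesins carry vesicles, organelles and protein complexes along the microtubules of cells whether they divide or not. METTL14 and METTL3 together form the enzyme that places N6-methyladenosine on RNA, and the R298P substitution in METTL14 is known to weaken it.

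Total counts ran from 4917661 to 7763084 per library with a median of 5853195, and levels are given as normalised counts per 1000000 (CPM). METTL14 averaged 545 CPM in wild-type add-back cells, 945 CPM in R298P add-back cells, 6.07 CPM in knockdown cells, 22.0 CPM in siControl RAS cells and 21.2 CPM in control cells, as the labels have it. All 7 fibroblast markers were expressed in every group, and of the markers of other cell types 3 of 7 epithelial (CDH1, KRT5 and KRT14), 2 of 5 endothelial (CDH5 and ERG) and 1 of 5 leukocyte markers (CD3E) were at 0 counts in all libraries. The summed level of the epithelial markers, mostly KRT18 and KRT19, was 70.7 to 80.8 CPM in wild-type add-back, 62.0 to 69.7 CPM in R298P add-back, 78.7 to 89.0 CPM in knockdown, 34.9 to 52.7 CPM in siControl RAS and 119 to 128 CPM in control libraries, so it moves in the same direction as the mitotic kinesins. The endothelial markers, mostly TEK, summed to 23.7 to 36.7 CPM in wild-type add-back, 34.5 to 39.6 CPM in R298P add-back, 30.7 to 37.4 CPM in knockdown, 23.6 to 29.97 CPM in siControl RAS and 13.6 to 19.8 CPM in control libraries. The leukocyte markers, mostly CD68, summed to 10.6 to 14.8 CPM in wild-type add-back, 10.5 to 12.3 CPM in R298P add-back, 6.02 to 14.3 CPM in knockdown, 14.4 to 23.9 CPM in siControl RAS and 2.96 to 7.97 CPM in control libraries. The summed level of the 4 markers of proliferating cells (MKI67, CCNA2, TOP2A and PCNA) was 155 to 174 CPM in wild-type add-back cells, 147 to 164 CPM in R298P add-back cells, 172 to 201 CPM in knockdown cells, 96.8 to 105 CPM in siControl RAS cells and 1198 to 1354 CPM in control cells. TOP2A gave most of that level in wild-type and R298P add-back cells, with means of 95.9 and 90.6 CPM. The summed level of the mitotic kinesins has the same order of groups, but single members do not all follow it. Between knockdown and siControl RAS cells, 9 of 12 tested mitotic kinesins had a higher and 3 a lower fitted level in knockdown cells. The part of these marker levels in the results below was not tested. In bulk RNA fewer cells of a type and less RNA per cell cannot be told apart.

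The first comparison, siControl RAS cells against control cells, asks how kinesin expression differs between RAS cells and cells that do not carry RAS. All 12 mitotic kinesins that were tested fell in siControl RAS cells, from the astral microtubule motor KIF18B, which had no count there, and the chromokinesin KIF4A, whose mean level was 2.89% of control, to the cytokinesis motor KIF20B, at 22.2% of control. The transport kinesins divided: of 14 tested, KIF16B, KIF5A, KIF13B and KIF3A rose, KIF1C, KIF13A, KIF1B and KIF17 fell, and 6 passed no test. A gene was called at an adjusted p under 0.05 in edgeR's quasi-likelihood test with Benjamini-Hochberg adjustment over all 13516 genes tested. By this rule 45.9% of all genes were called in that comparison, 24% as higher and 21.9% as lower in siControl RAS cells. The transport kinesins called, 4 higher and 4 lower of 14 tested, are near these shares. The median log2 fold change was -3.78 over the mitotic and 0.17 over the transport kinesins tested, beside a median of 0.00 in size over all genes tested. KIF18B passed the filter on low counts only through its control libraries, so its fall is not independent of that filter. The other 11 tested mitotic kinesins, all of them lower, had a median of -3.73. The median of all 12 is the same when KIF18B, at 0 counts in siControl RAS cells, is set at its bound. The libraries of the 2 groups did not overlap for any of the 12 mitotic kinesins, with siControl RAS lower, as held for 26.6% of all genes, and the same held, with siControl RAS lower, for 4 transport kinesins. For 5 transport kinesins they did not overlap with siControl RAS higher, as held for 27.5% of all genes.

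**Figure D1:**
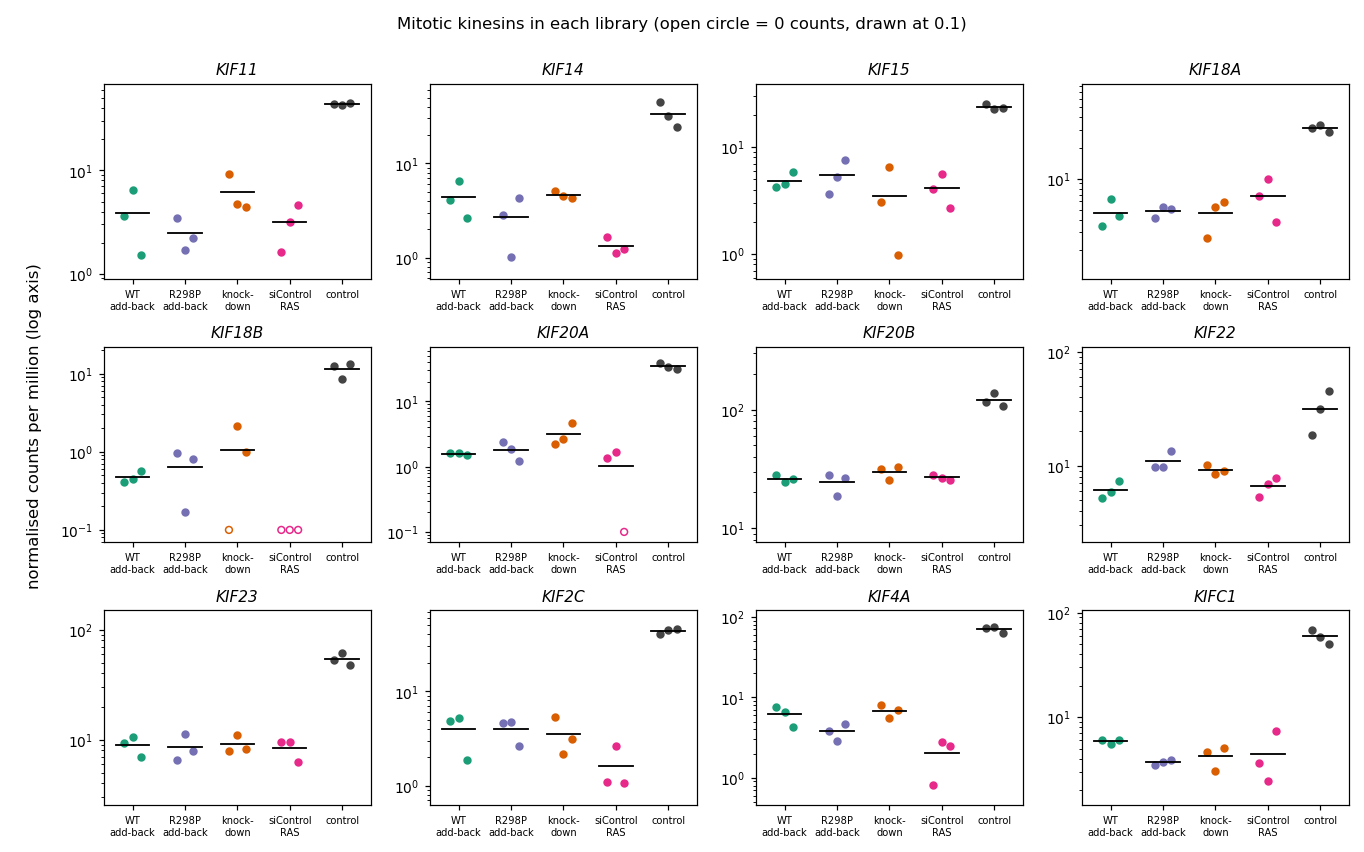
Normalised CPM on a log axis of the 12 tested mitotic kinesins in each library, with 1 point per library and a line at the mean of the 3 libraries of a group. In every panel the control libraries lie above all libraries of the 4 RAS groups, and KIF18B has 0 counts in all 3 siControl RAS libraries.

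The motors that shape the spindle were among the lower genes. KIF11, which slides antiparallel microtubules apart to make the spindle bipolar, had 1.63, 3.18 and 4.63 CPM in siControl RAS libraries, against 44.5, 42.8 and 44.7 CPM in control libraries. The control libraries lie within 2 CPM of each other and all siControl RAS libraries are far below them, at a log2 fold change of -3.83 (SE 0.39, adjusted p = 2.4e-09 in edgeR). KIF15, which can take over from KIF11 in keeping the poles apart, had 4.09, 5.62 and 2.67 CPM in siControl RAS libraries, against 25.3, 22.4 and 23.0 CPM in control libraries. Its log2 fold change was -2.51 (SE 0.40), again with all siControl RAS libraries far below control. KIFC1, a motor that walks to the minus end and pulls poles together, had 3.68, 2.44 and 7.31 CPM in siControl RAS libraries, against 68.6, 58.6 and 50.4 CPM in control libraries (log2 fold change -3.73, SE 0.28).

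The motors that act on chromosomes and on microtubule ends included the largest falls. KIF4A, which binds chromosome arms and later shortens the midzone together with PRC1, had 0.817, 2.81 and 2.50 CPM in siControl RAS libraries, against 73.8, 74.4 and 63.5 CPM in control libraries. This was a 35.8-fold lower level in siControl RAS cells (log2 fold change -5.16, SE 0.30, adjusted p = 2.46e-16 in edgeR). KIF2C, which takes microtubule ends apart at centromeres and so corrects wrong attachments, had 1.09, 2.62 and 1.07 CPM in siControl RAS libraries, against 40.2, 44.5 and 46.1 CPM in control libraries (log2 fold change -4.79, SE 0.39). KIF18B, which shortens astral microtubules, had 0 counts in each of the 3 siControl RAS libraries, against 81, 52 and 79 counts in control libraries. With siControl RAS set at the floor of 3 counts over its libraries, the level was at least 69.9-fold lower in siControl RAS cells. The other members of this set fell less. KIF22, which pushes chromosome arms away from the poles, had 5.31, 6.93 and 7.84 CPM in siControl RAS libraries, against 18.8, 31.6 and 44.7 CPM in control libraries (log2 fold change -2.25, SE 0.29), and its control libraries were the most spread of the class relative to their mean. KIF18A, which damps the swings of chromosomes at the spindle's middle, had 6.81, 9.93 and 3.74 CPM in siControl RAS libraries, against 30.8, 33.3 and 28.6 CPM in control libraries (log2 fold change -2.18, SE 0.32).

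The motors of the midzone and of cytokinesis spread over the whole range. KIF20A, which brings Aurora B and its complex to the midzone, had 1.36, 1.69 and 0 CPM in siControl RAS libraries, against 38.8, 33.3 and 30.9 CPM in control libraries (log2 fold change -5.03, SE 0.46). KIF14, which recruits citron kinase for the last step of division, had 1.63, 1.12 and 1.25 CPM in siControl RAS libraries, against 44.4, 32 and 24.5 CPM in control libraries (log2 fold change -4.61, SE 0.41). Both are near the lower end of what these libraries can measure in siControl RAS cells. KIF23, the motor of the centralspindlin complex, which it forms with RACGAP1, had 9.54, 9.55 and 6.24 CPM in siControl RAS libraries, against 53.3, 61.1 and 47.4 CPM in control libraries (log2 fold change -2.67, SE 0.24). KIF20B had 28.2, 26.6 and 25.7 CPM in siControl RAS libraries, against 116, 138 and 108 CPM in control libraries. Its log2 fold change of -2.17 (SE 0.15) was, with that of KIF18A, the smallest in size of the class, and its groups do not overlap.

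Because 3′ sequencing gives about 1 tag per transcript, tags of different kinesins can be added without a correction for length. The summed level of the mitotic kinesins was 66.7 ± 5.03 CPM in siControl RAS cells and 558 ± 29 CPM in control cells (SD, n = 3 each), or 12% of control. They made up 4.34% of all kinesin tags in siControl RAS cells and 26.3% in control cells. KIF20B, the most abundant of them, held 40.2% of the mitotic kinesin tags in siControl RAS cells and 21.6% in control cells. The mitotic sum depends on the sorting into classes. It leaves out KIF2A, sorted under other or mixed roles, with 90.7 CPM in siControl RAS cells and 88.1 CPM in control cells. The kinesins CENPE and STARD9, whose symbols do not begin with KIF, are not part of these sums. CENPE averaged 12.4 CPM in siControl RAS cells and 154.5 CPM in control cells, where it was above KIF20B (120.8 CPM). The only mitotic member left untested for low counts was KIF4B, with 3 counts over the siControl RAS libraries and 9 over the control libraries; it is a near copy of KIF4A, and reads may be divided between them.

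**Figure D2:**
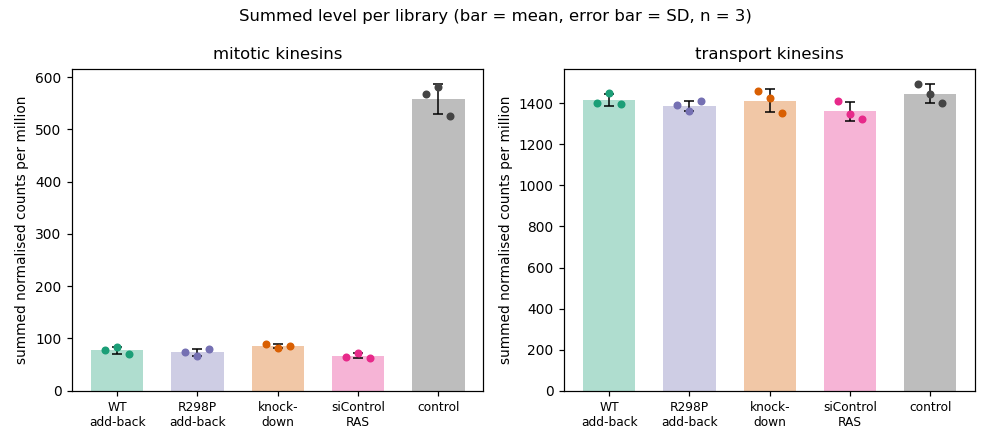
Summed normalised counts (CPM) of the mitotic kinesins (left) and transport kinesins (right) in each group, with bars at the mean, error bars of 1 SD (n = 3) and 1 point per library. The mitotic sum is 66.7 CPM in siControl RAS and 558 CPM in control cells, and the transport sums of all groups lie between 1360 and 1447 CPM.

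Promoter sequences of these genes were read for short elements known from promoters of cell cycle genes. The windows run from 250 bases before to 50 bases after the start of the gene, as RefSeq gives it on GRCh38.p14, and 31 of the 38 kinesins have one, among them 13 mitotic and 12 transport kinesins. The cell cycle genes homology region (CHR) was searched as TTTGAA or in the form TTCGAA, the CCAAT box as CCAAT, and the E2F site as any of 4 words of 7 letters, TTCCCGC, the variant TTCGCGC, the variant TTGCCGC and the variant TTGGCGC. Both strands were searched. No CHR match overlapped a match of the other 2 motifs. The promoters below belong to the strongly lower KIF4A, KIF20A and KIF14, to KIF23 and KIF20B, which fell less, to KIF24, a centriole kinesin with the same elements, and to the transport kinesins KIF5B and KIF16B, of which the first was not called and the second was higher in siControl RAS cells. Each is given 5′ to 3′ on the strand of its gene, with matches of CHR and CCAAT, on either strand, in capitals.
KIF4A (chrX:70289854-70290153, plus strand): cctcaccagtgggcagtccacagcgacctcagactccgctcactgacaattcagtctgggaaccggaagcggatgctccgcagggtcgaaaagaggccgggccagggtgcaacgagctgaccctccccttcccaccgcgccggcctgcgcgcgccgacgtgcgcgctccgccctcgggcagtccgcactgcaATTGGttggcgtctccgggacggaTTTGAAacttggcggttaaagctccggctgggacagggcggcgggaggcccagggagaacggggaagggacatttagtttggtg
KIF20A (chr5:138178862-138179161, plus strand): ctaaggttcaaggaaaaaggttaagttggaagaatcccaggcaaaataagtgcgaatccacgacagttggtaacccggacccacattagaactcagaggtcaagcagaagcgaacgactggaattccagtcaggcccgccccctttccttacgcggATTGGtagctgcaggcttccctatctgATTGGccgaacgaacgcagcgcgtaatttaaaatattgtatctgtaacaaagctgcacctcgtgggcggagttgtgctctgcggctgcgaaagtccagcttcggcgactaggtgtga
KIF14 (chr1:200620702-200621001, minus strand): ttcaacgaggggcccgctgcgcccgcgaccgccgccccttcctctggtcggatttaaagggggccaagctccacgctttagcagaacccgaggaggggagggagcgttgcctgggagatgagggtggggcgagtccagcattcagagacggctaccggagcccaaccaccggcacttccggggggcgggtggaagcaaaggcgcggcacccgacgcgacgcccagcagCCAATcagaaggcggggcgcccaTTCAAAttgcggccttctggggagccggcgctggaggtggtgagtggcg
KIF23 (chr15:69414099-69414398, plus strand): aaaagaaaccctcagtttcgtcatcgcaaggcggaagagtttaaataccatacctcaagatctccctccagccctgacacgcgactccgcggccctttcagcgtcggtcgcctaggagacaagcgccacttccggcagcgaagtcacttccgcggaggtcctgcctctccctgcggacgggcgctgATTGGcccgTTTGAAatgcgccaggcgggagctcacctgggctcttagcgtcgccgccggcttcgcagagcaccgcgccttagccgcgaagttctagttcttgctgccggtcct
KIF20B (chr10:89701340-89701639, plus strand): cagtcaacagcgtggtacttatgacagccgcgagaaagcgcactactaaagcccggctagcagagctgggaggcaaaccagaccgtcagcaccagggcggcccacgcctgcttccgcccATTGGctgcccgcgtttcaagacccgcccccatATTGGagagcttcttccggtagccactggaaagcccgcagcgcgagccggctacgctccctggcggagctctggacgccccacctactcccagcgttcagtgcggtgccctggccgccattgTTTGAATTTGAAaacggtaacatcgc
KIF24 (chr9:34329219-34329518, minus strand): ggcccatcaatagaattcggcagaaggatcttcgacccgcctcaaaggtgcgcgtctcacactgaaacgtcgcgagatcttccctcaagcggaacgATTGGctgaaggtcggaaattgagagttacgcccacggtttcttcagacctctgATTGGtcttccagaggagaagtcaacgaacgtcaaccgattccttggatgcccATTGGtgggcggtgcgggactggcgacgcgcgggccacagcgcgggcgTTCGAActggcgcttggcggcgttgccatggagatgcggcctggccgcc
KIF5B (chr10:32056376-32056675, minus strand): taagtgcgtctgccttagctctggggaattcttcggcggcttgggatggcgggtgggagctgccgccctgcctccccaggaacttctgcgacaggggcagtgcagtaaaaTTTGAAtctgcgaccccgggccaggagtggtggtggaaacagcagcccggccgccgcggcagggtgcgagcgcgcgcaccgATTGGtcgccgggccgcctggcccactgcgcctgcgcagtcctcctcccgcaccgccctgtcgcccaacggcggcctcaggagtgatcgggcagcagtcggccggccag
KIF16B (chr20:16573399-16573698, minus strand): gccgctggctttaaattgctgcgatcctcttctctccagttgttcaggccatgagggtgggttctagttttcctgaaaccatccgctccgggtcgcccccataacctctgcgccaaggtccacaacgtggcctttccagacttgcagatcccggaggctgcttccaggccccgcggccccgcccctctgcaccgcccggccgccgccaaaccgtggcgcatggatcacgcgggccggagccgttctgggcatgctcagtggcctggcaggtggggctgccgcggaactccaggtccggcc

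A CHR match within 100 bases before and 50 bases after the start was present in 11 of 13 mitotic kinesins (84.6%), 0 of 12 transport kinesins and 9.09% of 27305 genes with a window. The mitotic counts of motifs include both KIF4A and its near copy KIF4B, each with CHR and CCAAT matches. In KIF4A the CHR match begins 34 bases before the start and in KIF23 55 bases before it. In KIF14 the match lies just after the start. KIF20B carries 2 CHR matches in a row, which end inside the first 50 bases of the gene. Over the whole window a CHR match was present in 84.6% of mitotic kinesins, 8.33% of transport kinesins and 19.5% of genes. The 1 transport kinesin with a match was KIF5B, 140 bases before its start. A CCAAT box was present in 84.6% of mitotic kinesins, 33.3% of transport kinesins and 39.7% of genes, and both motifs in 76.9%, 8.33% and 7.85% of them. An E2F match was present in 30.8% of mitotic kinesins, 33.3% of transport kinesins and 15.3% of genes. KIF20A and KIF2C, which fell by 5.03 and by 4.79 on the log2 scale in siControl RAS cells, have no CHR match in the window. KIF20A has 2 CCAAT boxes and KIF2C has no match of any of the 3 motifs. These are matches of letters and not tested sites.

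**Figure D3:**
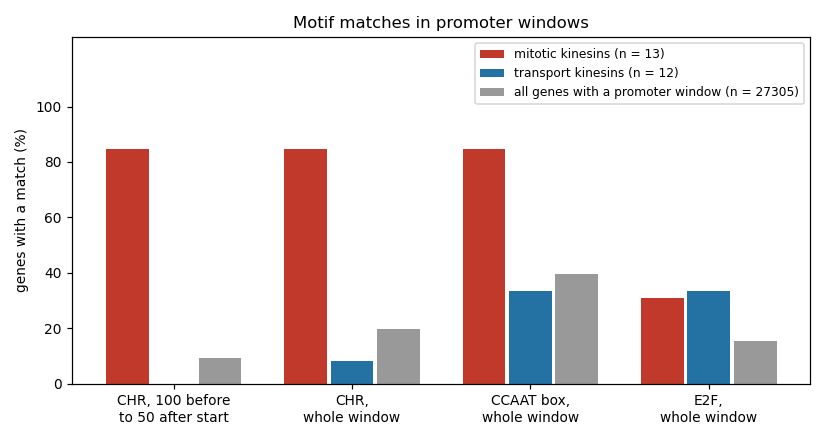
Share of genes (percent) with at least 1 match of a motif in the promoter window, for mitotic kinesins (n = 13), transport kinesins (n = 12) and all genes with a window (n = 27305). Near the start a CHR match was found in 84.6% of mitotic kinesins, no transport kinesin and 9.09% of genes, whereas E2F matches were about as frequent in both kinesin classes.

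The summed level of the transport kinesins was 1360 ± 45.1 CPM in siControl RAS cells and 1447 ± 46.8 CPM in control cells (SD, n = 3 each), or 94.0% of control. The most abundant member, KIF5B, the heavy chain of conventional kinesin outside neurons, had 541, 544 and 517 CPM in siControl RAS libraries, against 536, 553 and 530 CPM in control libraries. The groups overlap, and its log2 fold change of -0.02 has a 95% interval of -0.14 to 0.11. KIF3B, a subunit of the heterotrimeric motor that also serves cilia, had 110, 100 and 84.7 CPM in siControl RAS libraries, against 94.4, 91.1 and 91.8 CPM in control libraries (log2 fold change 0.09, 95% interval -0.12 to 0.30).

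Of the members that rose, KIF16B, which moves early endosomes outward, had 41.7, 42.3 and 38.9 CPM in siControl RAS libraries, against 17.7, 18.4 and 16.3 CPM in control libraries, a 2.34-fold higher level (log2 fold change 1.23, SE 0.16, adjusted p = 9.66e-08 in edgeR). KIF3A, the partner of KIF3B, had 59.7, 68.8 and 67.0 CPM in siControl RAS libraries, against 39.5, 44.5 and 38.4 CPM in control libraries (log2 fold change 0.67, SE 0.13, adjusted p = 7.3e-05 in edgeR). The groups of both genes are well apart. KIF13B, which carries membrane proteins to the cell surface, had 31.3, 31.1 and 26.6 CPM in siControl RAS libraries, against 21.3, 22.7 and 11.6 CPM in control libraries (log2 fold change 0.68, SE 0.20, adjusted p = 0.00541 in edgeR). Without control replicate 3, its lowest library, the log2 fold change was 0.43 and the adjusted p 0.0784 in edgeR. KIF5A, the neuronal form of the conventional heavy chain, had 7.49, 3.18 and 3.21 CPM in siControl RAS libraries, against 1.41, 0.824 and 1.83 CPM in control libraries (log2 fold change 1.77, SE 0.62, adjusted p = 0.0179 in edgeR). That call was lost without siControl RAS replicate 1, the highest library, at an adjusted p of 0.167, and without control replicate 2, at 0.0697.

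The members that fell did so by less than the mitotic kinesins, apart from KIF17. KIF1C, which carries integrins and secretory vesicles, had 364, 311 and 339 CPM in siControl RAS libraries, against 495, 437 and 436 CPM in control libraries (log2 fold change -0.43, SE 0.08, adjusted p = 1.4e-05 in edgeR). It is the second most abundant of the class and held 24.9% of the transport kinesin tags in siControl RAS cells and 31.5% in control cells. KIF13A, which positions recycling endosomes, had 71.8, 63.5 and 69.9 CPM in siControl RAS libraries, against 98.5, 91.4 and 82.2 CPM in control libraries (log2 fold change -0.41, SE 0.11, adjusted p = 0.00332 in edgeR). KIF1B, a carrier of mitochondria and of vesicle precursors, had 92.2, 88.1 and 89.1 CPM in siControl RAS libraries, against 108, 121 and 100 CPM in control libraries (log2 fold change -0.29, SE 0.10, adjusted p = 0.0171 in edgeR). The groups of these 3 genes do not overlap, but the call of KIF1B was lost without control replicate 2 (adjusted p = 0.115 in edgeR) and without siControl RAS replicate 2 (0.0533). KIF17, known from dendrites of mouse neurons and from cilia, had 0, 2 and 0 counts in siControl RAS libraries, against 44, 9 and 13 counts in control libraries. Its level in control cells was 32.7 times that in siControl RAS cells (exact 95% interval 8.69 to 275, for counting error only), and most control counts are of replicate 1.

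The 6 transport kinesins with no call were KIF5B, KIF3B, KIFC3, KIFC2, KIF21B and KIF3C. KIFC3, a minus-end motor at cell junctions and the Golgi, had 75.9, 82.6 and 74.0 CPM in siControl RAS libraries, against 68.1, 54.7 and 72.9 CPM in control libraries. The groups do not overlap, yet the adjusted p was 0.10 in edgeR. KIF21B and KIF3C averaged under 2 CPM in both groups, where the 95% intervals of the log2 fold change are more than 3 units wide. The members with neuronal roles KIF1A and KIF5C, and KIF21A, were too low to be tested in any comparison. KIF5C had 0 counts over the siControl RAS libraries and 13 counts over the control libraries, all of them in control replicate 1.

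**Figure D4:**
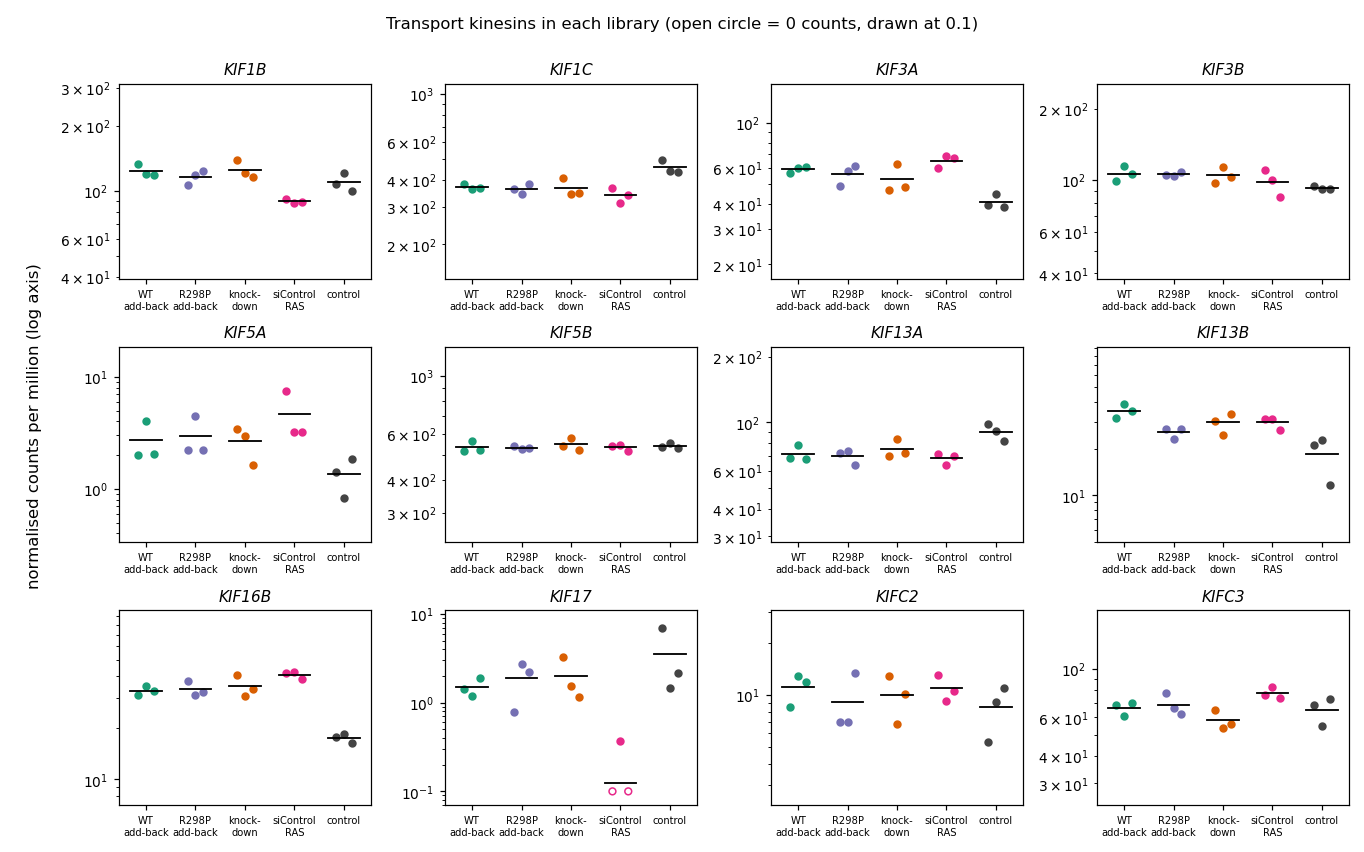
Normalised CPM on a log axis of 12 transport kinesins in each library (KIF21B and KIF3C, under 4 CPM in all libraries, are not drawn), with 1 point per library and a line at the mean of the 3 libraries of a group. KIF5B lies between 515 and 580 CPM in all libraries, and the 3 control libraries of KIF16B lie below all libraries of the RAS groups.

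Of the kinesins of cilia and centrioles, KIF7, which regulates Hedgehog signalling at the tip of the cilium, had 7.63, 7.49 and 6.06 CPM in siControl RAS libraries, against 10.8, 15.3 and 13.6 CPM in control libraries (log2 fold change -0.90, SE 0.32, adjusted p = 0.0195 in edgeR). The groups do not overlap, and the call was lost without control replicate 2 (adjusted p = 0.0789) and without siControl RAS replicate 3 (0.0713). KIF9 and KIF27 passed no test. KIF24, which restrains the growth of cilia from the mother centriole, was too low to be tested, with 1 count over the siControl RAS libraries and 31 counts over the control libraries. Its level in control cells was 30.7 times that in siControl RAS cells, with an exact 95% interval of 5.11 to 1250 for counting error only. The tubulin depolymerase KIF2A averaged 90.7 ± 16.9 CPM in siControl RAS cells and 88.1 ± 8.89 CPM in control cells (SD, n = 3 each; log2 fold change 0.04, 95% interval -0.21 to 0.30). It was sorted under other or mixed roles, so it is part of neither the mitotic counts nor the mitotic sum. Counted as mitotic, KIF2A would be a tested member that was not called. The mitotic sum of siControl RAS cells would then be a larger share of that of control cells.

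Genes whose products work with the motors were counted in lists. All 16 listed partners of the mitotic kinesins fell in siControl RAS cells, where 21.9% of all genes were called as lower, with a median log2 fold change of -3.66, and the 4 largest changes were those of CDCA8 (-4.91), AURKB (-4.81), BUB1B (-4.54) and PLK1 (-4.52), which serve the chromosomal passenger complex, the spindle checkpoint and mitotic entry. CENPE, the kinesin of the kinetochore whose symbol does not begin with KIF, had 15.4, 9.37 and 12.5 CPM in siControl RAS libraries, against 154, 158 and 151 CPM in control libraries (log2 fold change -3.62, SE 0.17). STARD9, a kinesin of the centrosome, moved the other way, with 11.7, 9.18 and 11.6 CPM in siControl RAS libraries, against 6.88, 6.26 and 3.66 CPM in control libraries. Its log2 fold change was 0.95 (SE 0.33, adjusted p = 0.0194 in edgeR), and the call was lost without control replicate 3 (adjusted p = 0.114) and without siControl RAS replicate 1 (0.058).

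Of 21 tested cargo adaptors and kinesin subunits, 2 rose, 6 fell and 13 passed no test, beside 45.9% of all genes called, with a median log2 fold change of 0.07. KLC4, a light chain of conventional kinesin, had 12.1, 14.2 and 15.7 CPM in siControl RAS libraries, against 4.38, 4.61 and 4.16 CPM in control libraries (log2 fold change 1.67, SE 0.30). The light chain KLC1 went the other way, with a log2 fold change of -0.43, as did MAP7D3, which recruits conventional kinesin to microtubules (-0.95), and the kinesin-binding protein KIFBP (-0.43). Of 21 tested subunits of dynein, the motor of the opposite direction, and its activator dynactin, 2 rose, 6 fell and 13 passed no test, with a median log2 fold change of -0.11. The number called in either list, 8 of 21, is a smaller share than that over all genes. Among the called dynein and dynactin genes the largest changes were those of the light chains DYNLL1 (-0.78) and DYNLL2 (-0.72) and of the dynactin subunits DCTN4 (-0.71) and ACTR10 (-0.42). In both lists 1 of the 2 higher calls was lost with upper-quartile scaling.

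The second comparison, knockdown cells against siControl RAS cells, asks how kinesin expression differs in the presence of RAS when METTL14 is lowered, in cells that by the labels also carry a vector. METTL14 itself had 9.35, 4.94 and 3.94 CPM in knockdown libraries, against 26.2, 19.3 and 20.5 CPM in siControl RAS libraries. Of the 12 mitotic kinesins tested KIF4A, KIF14, KIF20A and KIF18B rose in knockdown cells, none fell and 8 were not called, against 15.5% of all genes called (7.47% higher and 8.06% lower). The same 4 had log2 fold changes of -5.16 (KIF4A), -5.03 (KIF20A) and -4.61 (KIF14) and a bound of 69.9-fold lower (KIF18B) in siControl RAS cells against control. KIF2C, at -4.79 there, fell more than KIF14 but was not called in knockdown cells. Both comparisons use the siControl RAS libraries, and the relation between them was not tested. The libraries of the 2 groups did not overlap for the mitotic KIF4A, KIF14, KIF20A and KIF22 and the transport kinesins KIF1B and KIF17, with knockdown higher, as held for 14.3% of all genes, and for KIFC3, also a transport kinesin, with knockdown lower, as held for 15.7%. The median log2 fold change was 0.72 over the mitotic kinesins tested, 0.04 over the transport kinesins and, as a size, 0.00 over all genes tested.

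KIF4A had 7.92, 5.56 and 6.89 CPM in knockdown libraries, against 0.817, 2.81 and 2.50 CPM in siControl RAS libraries. All knockdown libraries are above all siControl RAS libraries, at a log2 fold change of 1.78 (SE 0.33, adjusted p = 0.000153 in edgeR). KIF14 had 5.08, 4.48 and 4.27 CPM in knockdown libraries, against 1.63, 1.12 and 1.25 CPM in siControl RAS libraries (log2 fold change 1.75, SE 0.44, adjusted p = 0.00463 in edgeR). KIF20A had 2.24, 2.62 and 4.60 CPM in knockdown libraries, against 1.36, 1.69 and 0 CPM in siControl RAS libraries (log2 fold change 1.60, SE 0.50, adjusted p = 0.0247 in edgeR). The call of KIF20A was lost without siControl RAS replicate 3, the library at 0 (adjusted p = 0.123), and without knockdown replicate 3, the highest library (0.162). KIF18B had 0, 14 and 6 counts in knockdown libraries, against 0, 0 and 0 counts in siControl RAS libraries. With the same floor its level was at least 6.97-fold higher in knockdown cells, but the groups overlap, since knockdown replicate 1 has no count.

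Of the mitotic kinesins that were not called, KIF2C and KIF11 came nearest. KIF2C had 5.28, 2.16 and 3.12 CPM in knockdown libraries, against 1.09, 2.62 and 1.07 CPM in siControl RAS libraries (log2 fold change 1.14, 95% interval 0.25 to 2.03, adjusted p = 0.0744 in edgeR). It passed the test without siControl RAS replicate 2 (adjusted p = 0.0239) and without knockdown replicate 2 (0.0337). KIF11 had 9.14, 4.78 and 4.43 CPM in knockdown libraries, against 1.63, 3.18 and 4.63 CPM in siControl RAS libraries (log2 fold change 0.96, 95% interval 0.12 to 1.81, adjusted p = 0.122 in edgeR). The groups of both genes overlap. KIF22 had 10.2, 8.49 and 9.03 CPM in knockdown libraries, against 5.31, 6.93 and 7.84 CPM in siControl RAS libraries, with no overlap but an adjusted p of 0.343 in edgeR. For KIF20B, with 31.7, 25.3 and 32.7 CPM in knockdown libraries against 28.2, 26.6 and 25.7 CPM in siControl RAS libraries, the interval of the log2 fold change was -0.17 to 0.47. For KIF23 it was -0.41 to 0.63, with 7.92, 11.1 and 8.21 CPM in knockdown libraries against 9.54, 9.55 and 6.24 CPM in siControl RAS libraries. A difference as large as that of KIF4A is thus outside the intervals of both midzone motors. KIFC1 (4.67, 3.09 and 5.09 CPM in knockdown libraries), KIF15 (3.05, 6.48 and 0.985 CPM) and KIF18A (2.64, 5.25 and 5.91 CPM) had log2 fold changes of -0.07, -0.22 and -0.55, none of them called.

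In knockdown cells the mitotic kinesins were still far below control. Their summed level was 85.8 ± 4.17 CPM in knockdown cells and 66.7 ± 5.03 CPM in siControl RAS cells (SD, n = 3 each), which is 15.4% and 12% of control. Against control all 12 tested mitotic kinesins were lower in knockdown cells, with log2 fold changes from -3.79 (KIFC1) to -1.78 (KIF22), where 36% of all genes were called, 19.2% as higher and 16.7% as lower. MKI67, the marker of dividing cells, averaged 41.0 ± 3.47 CPM in knockdown cells, 10.3 ± 3.44 CPM in siControl RAS cells and 284 ± 19.6 CPM in control cells (SD, n = 3 each). Between knockdown and siControl RAS cells the log2 fold changes of the 4 markers of proliferating cells were 2.00 (MKI67), 1.38 (CCNA2) and 0.93 (TOP2A), all called, and 0.02 (PCNA), not called.

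Among 14 transport kinesins 2 rose and 1 fell in knockdown cells, beside 7.47% of all genes called as higher and 8.06% as lower. KIF1B had 139, 121 and 116 CPM in knockdown libraries, against 92.2, 88.1 and 89.1 CPM in siControl RAS libraries (log2 fold change 0.48, SE 0.10, adjusted p = 0.000578 in edgeR). The groups are well apart, and against control the log2 fold change of KIF1B in knockdown cells was 0.19 (95% interval -0.01 to 0.39) and was not called. KIF17 had 16, 10 and 7 counts in knockdown libraries, against 0, 2 and 0 counts in siControl RAS libraries. The ratio of its levels was 17.3 (exact 95% interval 4.41 to 148, for counting error only), and the call in edgeR's test (adjusted p = 0.0126) was lost on leaving out siControl RAS replicate 1, siControl RAS replicate 3 or knockdown replicate 1 (0.0616 to 0.0753). KIFC3 had 65, 53.6 and 56.0 CPM in knockdown libraries, against 75.9, 82.6 and 74.0 CPM in siControl RAS libraries (log2 fold change -0.42, SE 0.12, adjusted p = 0.0179 in edgeR). It too was lost on leaving out siControl RAS replicate 2, knockdown replicate 2 or knockdown replicate 3 (0.0777 to 0.0888).

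The other transport kinesins were not called between knockdown and siControl RAS cells. KIF5B averaged 547 ± 29.7 CPM in knockdown cells and 534 ± 14.8 CPM in siControl RAS cells (SD, n = 3 each; interval of the log2 fold change -0.09 to 0.16). KIF16B had 40.6, 30.7 and 34 CPM in knockdown libraries, against 41.7, 42.3 and 38.9 CPM in siControl RAS libraries, with a log2 fold change of -0.23 (95% interval -0.54 to 0.09). For KIF3A the libraries were 46.7, 62.8 and 48.3 CPM in knockdown cells and 59.7, 68.8 and 67.0 CPM in siControl RAS cells (log2 fold change -0.30, adjusted p = 0.124 in edgeR). Compared with control, KIF16B (log2 fold change 1.00), KIF13B (0.67) and KIF3A (0.37) were higher and KIF1C (-0.32) was lower in knockdown cells. The calls of KIF13B and KIF3A were lost without some of the control and knockdown libraries: without control replicate 3 the log2 fold changes were 0.43 and 0.33, without knockdown replicate 3 that of KIF13B was 0.57, and that of KIF3A was 0.35 without control replicate 1 and 0.22 without knockdown replicate 2. KIF7 was lower than control as well (log2 fold change -0.96, adjusted p = 0.0172 in edgeR), a call lost without control replicate 2 (0.0743) or knockdown replicate 1 (0.102).

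**Figure D5:**
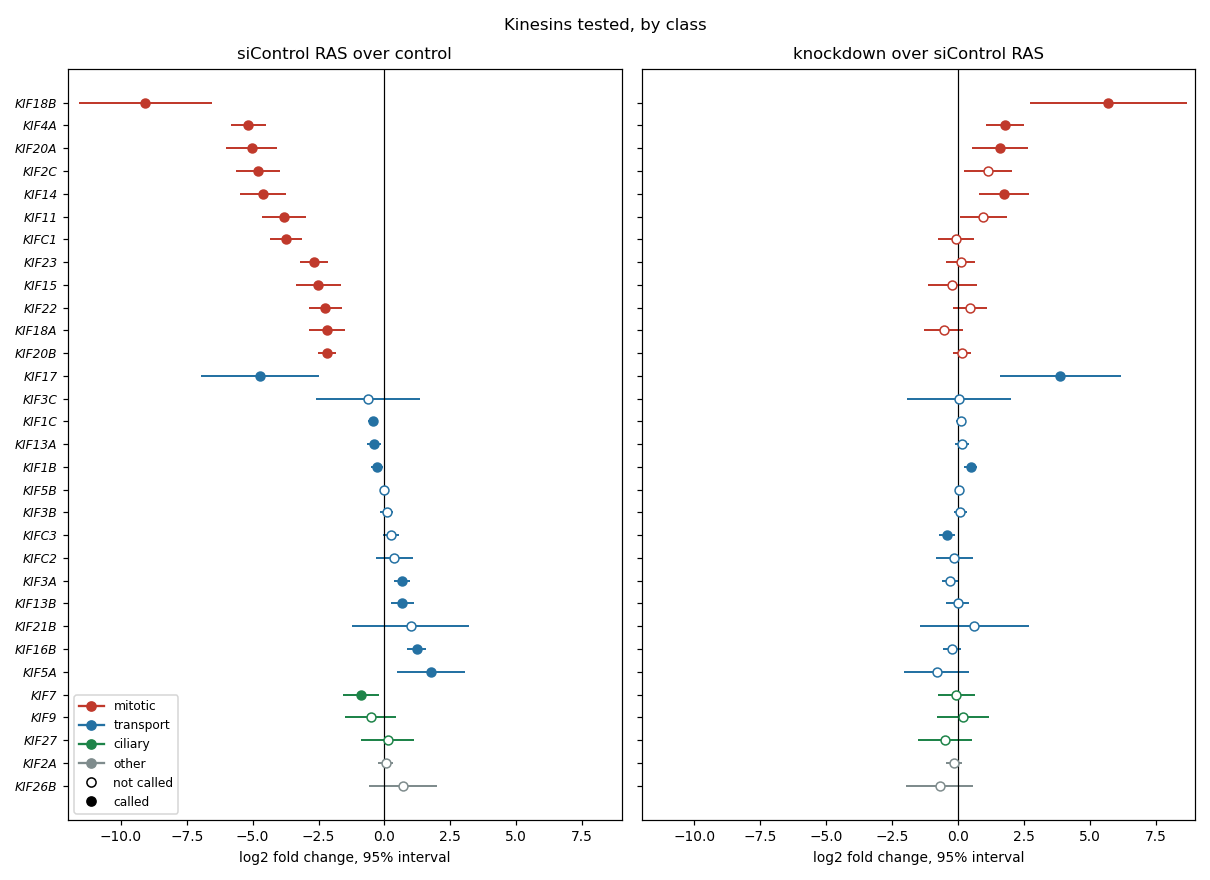
Fitted log2 fold change with its 95% interval for the 31 tested kinesins, in siControl RAS over control cells (left) and in knockdown over siControl RAS cells (right), coloured by class, with filled points where the adjusted p was under 0.05. All 12 mitotic kinesins lie left of 0 in the left panel, and KIF18B, KIF4A, KIF20A and KIF14 are the filled points of that class in the right panel. The points of KIF18B rest on 0 counts in siControl RAS cells and are not measures of size.

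Of the 16 partners of the mitotic kinesins, 6 rose in knockdown cells, where 7.47% of all genes were called as higher, none fell and 10 were not called, with a median log2 fold change of 0.74. Among the 6, BUB1B (2.01), AURKB (1.32), PRC1 (1.21) and the contractile ring protein ANLN (0.88) had the largest changes. With 1 library left out the count ran from 5 to 7, and the call of AURKB was lost without siControl RAS replicate 1 (adjusted p = 0.0582 in edgeR) and without knockdown replicate 2 (0.0530). PRC1, which loads KIF4A onto the midzone, had 26.6, 21.8 and 24.8 CPM in knockdown libraries, against 11.7, 7.49 and 12.1 CPM in siControl RAS libraries. CENPE had 20.7, 30.7 and 32.2 CPM in knockdown libraries, against 15.4, 9.37 and 12.5 CPM in siControl RAS libraries (log2 fold change 1.16, SE 0.18, adjusted p = 6.1e-06 in edgeR). Of 21 cargo adaptors and kinesin subunits only KLC4 was called. It had 4.27, 8.33 and 6.57 CPM in knockdown libraries, against 12.1, 14.2 and 15.7 CPM in siControl RAS libraries (log2 fold change -1.12, SE 0.29, adjusted p = 0.00656 in edgeR), and without knockdown replicate 1 the adjusted p was 0.054. Of 21 dynein and dynactin subunits 5 rose and none fell, beside 7.47% of all genes called as higher and 8.06% as lower, with small changes such as ACTR1B (0.41), ACTR1A (0.36), DCTN2 (0.30) and DYNC1I2 (0.26). That count was 3 on leaving out replicate 2 or 3 of siControl RAS, or replicate 1 or 2 of knockdown. With upper-quartile scaling 2 adaptors were called as higher.

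The third set of comparisons asks how kinesin expression differs when METTL14 is expressed from a lentivirus in knockdown cells. METTL14 averaged 545 CPM in wild-type and 945 CPM in R298P add-back cells, far above its level in siControl RAS and control cells. Its level also differed between the add-backs (log2 fold change -0.79, wild type over R298P, adjusted p = 0.0322 in edgeR). Between the add-backs, METTL14 level and substitution thus cannot be told apart. Between wild-type add-back and knockdown cells 0 of 31 kinesins were called in edgeR and 2 had an unadjusted p under 0.05, where 0.621% of all genes were called. Between R298P add-back and knockdown cells 0 of 31 were called and 2 had an unadjusted p under 0.05, where 1.09% of all genes were called. Between wild-type and R298P add-back cells 0 of 31 were called and 4 had an unadjusted p under 0.05, where 0.0222% of all genes were called. These shares are by adjusted p. The share of all genes with an unadjusted p under 0.05 is not given here, so the counts of 2, 2 and 4 have no background to be read against. DESeq2 and limma-voom likewise called no kinesin in these 3 comparisons.

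Some mitotic kinesins had lower values in the add-backs than in knockdown cells. KIF4A had 7.48, 6.59 and 4.32 CPM in wild-type add-back libraries and 3.82, 2.90 and 4.66 CPM in R298P add-back libraries, against 7.92, 5.56 and 6.89 CPM in knockdown libraries. The R298P libraries are all below the knockdown libraries, at a log2 fold change of -0.84 (95% interval -1.46 to -0.22, adjusted p = 0.264 in edgeR), whereas the wild-type libraries overlap them. KIF11 had 3.64, 6.44 and 1.5 CPM in wild-type add-back libraries and 3.50, 1.70 and 2.23 CPM in R298P add-back libraries, against 9.14, 4.78 and 4.43 CPM in knockdown libraries. For R298P the log2 fold change was -1.26 (95% interval -2.14 to -0.39, adjusted p = 0.214 in edgeR). KIF20A had 1.62, 1.65 and 1.5 CPM in wild-type add-back libraries and 2.39, 1.87 and 1.22 CPM in R298P add-back libraries, against 2.24, 2.62 and 4.60 CPM in knockdown libraries. For the wild type the log2 fold change was -0.99 (95% interval -1.96 to -0.02, adjusted p = 0.648 in edgeR). MKI67 averaged 34.1 ± 4.62 CPM in wild-type add-back cells, 29.6 ± 5.49 CPM in R298P add-back cells and 41.0 ± 3.47 CPM in knockdown cells (SD, n = 3 each).

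KIF14 stayed near the level of knockdown cells in wild-type add-back libraries, at 4.04, 6.44 and 2.63 CPM, and had 2.86, 1.02 and 4.26 CPM in R298P add-back libraries, against 5.08, 4.48 and 4.27 CPM in knockdown libraries. KIF22 was the mitotic kinesin with the widest gap between the add-backs, with 5.25, 5.84 and 7.33 CPM in wild-type libraries, against 9.70, 9.71 and 13.6 CPM in R298P libraries (log2 fold change -0.83, 95% interval -1.44 to -0.22, adjusted p = 0.916 in edgeR). KIFC1 differed the other way, with 6.06, 5.54 and 6.01 CPM in wild-type libraries, against 3.50, 3.75 and 3.85 CPM in R298P libraries (log2 fold change 0.66, 95% interval 0.02 to 1.31, not called). The libraries of both genes do not overlap between the add-backs, nor did those of 11.7% of all genes. PRC1 was the 1 mitotic partner called in either add-back against knockdown, with 17.0, 16.2 and 13.6 CPM in R298P add-back libraries, against 26.6, 21.8 and 24.8 CPM in knockdown libraries (log2 fold change -0.63, adjusted p = 0.0400 in edgeR). Leaving out any control library, knockdown replicate 1 or 3, or any R298P library raised that p to between 0.059 and 0.219. The call of PRC1 was also lost with limma-voom (adjusted p = 0.170) and in an edgeR fit of only the groups compared (0.183).

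KIF20B, KIF23, KIF15 and KIF18A were called in no comparison of the add-backs with knockdown or siControl RAS cells. KIF20B had 28.1, 24.4 and 25.7 CPM in wild-type libraries and 28.1, 18.6 and 26.4 CPM in R298P libraries. KIF23 had 9.30, 10.6 and 6.95 CPM in wild-type libraries and 6.52, 11.2 and 7.91 CPM in R298P libraries. The lowest KIF20B library of each add-back is below all knockdown and siControl RAS libraries, and the other libraries overlap them. KIF15 had 4.24, 4.49 and 5.82 CPM in wild-type and 3.66, 5.28 and 7.5 CPM in R298P libraries, and KIF18A had 3.44, 6.29 and 4.32 CPM in wild-type and 4.13, 5.28 and 5.07 CPM in R298P libraries. KIF18B had 2, 3 and 3 counts in wild-type and 6, 1 and 4 counts in R298P libraries. The summed level of the mitotic kinesins was 77.4 ± 7.18 CPM in wild-type add-back cells (13.9% of control) and 73.5 ± 7.12 CPM in R298P add-back cells (13.2% of control), against 85.8 ± 4.17 CPM in knockdown cells (SD, n = 3 each). These sums lie between those of knockdown and siControl RAS cells, with libraries that overlap the knockdown group in wild-type add-back cells only.

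Set against siControl RAS cells, some mitotic kinesins were called as higher in each add-back. Of these, KIF4A and KIF14 in wild-type and KIF18B in R298P add-back cells were also called in knockdown cells, whereas KIF2C was not. In wild-type add-back cells KIF4A (log2 fold change 1.64, SE 0.34), KIF14 (1.69, SE 0.44) and KIF2C (1.36, SE 0.43) were called as higher of 12 mitotic kinesins, where 13.0% of all genes were called and 6.32% as higher. The adjusted p-values in edgeR were 0.000648, 0.00734 and 0.0291. KIF2C had 4.85, 5.24 and 1.88 CPM in wild-type add-back libraries, against 1.09, 2.62 and 1.07 CPM in siControl RAS libraries. Without wild-type replicate 2 only KIF4A was called, and without siControl RAS replicate 1 or 3 or wild-type replicate 1 the call of KIF2C was lost (adjusted p 0.104 to 0.150). In R298P add-back cells KIF2C and KIF18B were called as higher, where 13.4% of all genes were called and 6.27% as higher. KIF2C had 4.61, 4.77 and 2.64 CPM in R298P add-back libraries (log2 fold change 1.37, SE 0.43, adjusted p = 0.0273 in edgeR), and KIF18B was at least 3.92-fold higher than in siControl RAS cells with the same floor. No mitotic kinesin was called without siControl RAS replicate 1 or 3 or R298P replicate 1, and 1 was called without R298P replicate 2 or 3. The call of KIF18B was lost without siControl RAS replicate 2 as well (adjusted p = 0.0650 in edgeR), so of the 6 libraries compared only R298P replicate 2 could be left out without losing it. All of these comparisons and that of knockdown cells share the siControl RAS libraries.

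Of the transport kinesins, KIF1B and KIF17 were called as higher in knockdown than in siControl RAS cells. KIF1B had 133, 119 and 119 CPM in wild-type add-back libraries and 106, 119 and 123 CPM in R298P add-back libraries. Its siControl RAS libraries had 92.2, 88.1 and 89.1 CPM. All libraries of both add-backs are above the siControl RAS libraries, at log2 fold changes of 0.46 (SE 0.10, adjusted p = 0.00107 in edgeR) and 0.37 (SE 0.10, adjusted p = 0.00951 in edgeR). The R298P call was lost without R298P replicate 3 (adjusted p = 0.0576). KIF17 was called in both add-backs as well, with ratios to siControl RAS of 13.5 (exact 95% interval 3.36 to 117) for the wild type and 17.1 (4.37 to 147) for R298P, intervals that cover counting error only. Those calls were lost without siControl RAS replicate 1 or 3, without R298P replicate 2, or without any of the 3 wild-type libraries. KIFC3, which was lower in knockdown cells, had 68.1, 61.2 and 69.7 CPM in wild-type add-back libraries and 77.8, 66.1 and 62.2 CPM in R298P add-back libraries, and neither differed from knockdown or from siControl RAS cells by the test. KIF13B was the 1 transport kinesin with an unadjusted p under 0.05 between the add-backs, with 31.7, 39.1 and 35.1 CPM in wild-type libraries, against 27.0, 23.2 and 26.8 CPM in R298P libraries (log2 fold change 0.46, 95% interval 0.07 to 0.86, adjusted p = 0.98 in edgeR).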

How the data were processed

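Per the labels' protocols, the 15 libraries were made with Lexogen's QuantSeq kit, which reads 3′ ends. The values the authors deposited are whole-number counts per Ensembl gene, not normalised. Bowtie2, RSEM 1.2.12 and hg19 are named without a role, per the submitters' processing notes. Not given in the sources used here are any rounding of RSEM estimates, the annotation and the use of strand. Without strand, reads of KIF9 or KIF23 and their antisense genes cannot be told apart. Where the labels name a knockout or knock-in, the siRNA and lentivirus of their protocols are followed.

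Symbols were matched by Ensembl ID for 52301 of 57736 IDs (90.6%), through a symbol table and, for 342, GENCODE 29. No coordinates of the counts table were used. Promoter windows are from RefSeq on GRCh38.p14 and may not be the starts used in these cells.

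All libraries were fitted in 1 model in edgeR 4.0.16 (R 4.3.3) with TMM scaling, the default expression filter (about 10 counts, 1.71 CPM at the median depth) and the two-sided quasi-likelihood F test in its robust form, with 10 residual degrees of freedom. In all 13516 genes were tested and p-values adjusted by Benjamini-Hochberg over them. SE is the log2 fold change over the root of F. The biological coefficient of variation was 16.7%. Of 38 kinesins 31 passed the filter (12 mitotic, 14 transport, 3 ciliary, 2 other), of which KIF18B, KIF21B and KIF3C would not have reached the required 3 libraries without some group (for KIF18B, control), and the 7 others had 4 to 53 counts in all. CPM use TMM-scaled library sizes. Folds against a group at 0 are bounds with 3 counts set for that group. Ratios to a group with 1 to 3 counts have exact conditional 95% intervals. The steps were tested on simulated data. An exact permutation test of 3 against 3 libraries cannot go below p = 0.1, so none was used.

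Pairs of libraries within a group differed by more than sampling noise (chi-square per degree of freedom 3.21 to 7.13). Over 30 pairs of libraries with the same replicate number in 2 groups, deviations from the group means correlated at -0.0435 to 0.0541, so numbers were treated as unpaired. Alternatives were 8 settings (2 scalings, DESeq2 1.42.0, limma-voom in limma 3.58.1, 2 filters, a fit of only the groups compared and a replicate block) and leaving out each of 15 libraries. Partner genes were put through them as an addition chosen after seeing the data.

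The members and lists were chosen with earlier results of these data known. Values in every library are given for mitotic kinesins and for other kinesins called in the first or second comparison, and partner lists are represented by those called members, 4 at most, that changed most; other named genes were picked after their values were seen.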

Additional observations from a re-analysis of the deposited data

How the results depend on the processing

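The 12 lower calls of mitotic kinesins in siControl RAS against control and in knockdown against control stood at 12 under every setting run. Of the 4 mitotic kinesins higher in knockdown than in siControl RAS cells, limma-voom called 1 (KIF4A) and a fit of only these 2 groups called 2. Transport kinesins higher in that comparison numbered 2, and 1 with limma-voom, with a filter of 5 CPM or in the 2-group fit. Mitotic kinesins higher in wild-type add-back than in siControl RAS cells numbered 3, and 1 with limma-voom or in the 2-group fit, and those higher in R298P add-back cells numbered 2, and 0 in both. With no filter 1 kinesin (KIF11) was called between R298P add-back and knockdown. With 1 library left out, mitotic counts ran from 3 to 5 in knockdown, 1 to 4 in wild-type and 0 to 2 in R298P add-back cells against siControl RAS. Transport counts ran from 1 to 2 higher and 0 to 1 lower in knockdown against siControl RAS, and 3 to 4 in each direction in siControl RAS against control. The replicate block changed no count, with 12 and 4 mitotic calls in the first and second comparisons, and 8 of 15 libraries correlated best with libraries of their own number. No kinesin that was called changed sign. Kinesins under about 2 CPM rest on few counts, and differences among them within their intervals were not detectable at this depth.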
